A study of Mus musculus with 3143 samples.

Results

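The genes described here are 10 members of the transforming growth factor beta (TGF-beta) pathway, found by symbol among the 46517 gene names of a raw read count table from single cells of the mouse kidney glomerulus. They are the ligands Tgfb1, Tgfb2 and Tgfb3, the receptors Tgfbr1, Tgfbr2 and Tgfbr3, the signal transducers Smad2 and Smad3, the inhibitory Smad7, and the latency protein Ltbp1, and all 10 were present. They were picked by name and not by a rule on measured values, but earlier results of these data were known at the time. The study set single glomerular cells of mice with IgA nephropathy, in which IgA is deposited in the mesangial matrix, beside cells of control mice. Glomeruli were dissociated with enzymes, viable cells were sorted 1 to a well, and whole transcripts were sequenced by Smart-seq2. All mice were adult C57BL/6. The group labelled IgAN gave 1798 cells on plates 313, 315, 316, 318, 322 and 325, and the group labelled Control gave 1345 cells on plates 314, 317, 321 and 326. How IgAN was induced is not given in the sources used here.

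Animals are not named in the labels. Each group therefore counted as 1 sample, no test was run and no p-value is given. No plate held cells of both groups. Plate effects and group effects cannot be told apart, and the range between plates stands in for an error. Cells held 50365 to 1135415 reads, with a median of 234207. Levels are the mean over cells of each cell's CPM, the reads of a gene per 1000000 reads of the cell, and log2 differences are of the IgAN mean over the Control mean after adding 1 CPM to both. A gene was measured in a class of cells when it reached 10 CPM and had reads in 10% of the cells in at least 1 group. It was called higher or lower where that difference was 1 or more in size and every plate of a group lay above every plate of the other, over plates with at least 10 cells of the class. Classes were built from 23 clusters, 22 of which took a name from marker genes, and the word "like" marks that a class was named from RNA. Endothelial-like cells made up 1634 of 3143 cells. Reads carry no molecular identifiers, so intervals cover counting error only.

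TGF-beta is secreted as a latent dimer, which latency proteins such as Ltbp1 bind to the matrix until it is released. The active ligand is held by the co-receptor Tgfbr3, also called betaglycan, and binds the kinase receptors Tgfbr2 and Tgfbr1, which phosphorylate Smad2 and Smad3; Smad7 is induced by the pathway and blocks it. In the kidney the pathway is known for driving mesangial matrix and fibrosis, and in endothelium it acts beside bone morphogenetic protein (BMP) signals through Acvrl1 and the co-receptor Eng.

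The 10 members lie on 8 chromosomes of the mouse build GRCm38. Tgfb1 is at chr7:25687002-25705077 on the plus strand, Tgfb2 at chr1:186622792-186705989 on the minus strand, and Tgfb3 at chr12:86056745-86079041 on the minus strand. Tgfb2, Tgfb3 and Tgfbr3 each share exon bases with another annotated gene model, Gm29491 with Tgfb2, Gm37804 and Gm48008 with Tgfb3, and Gm43422 with Tgfbr3. The models that share bases with Tgfb2 and Tgfb3 lie on the opposite strand. The strand setting of the counting is not given in the sources used here, so reads from those shared bases are uncertain. Gm43422 lies on the same strand as Tgfbr3, so reads from the bases they share are uncertain under any strand setting. The ligands Tgfb1 and Tgfb2 had different leading classes in both groups, so the DNA around their starts is shown from RefSeq (GRCm38.p6), 250 bases before to 50 bases after the start, with capitals for the TATA box motif TATAA and for the GC box motif GGGCGG, which reads CCGCCC on its other strand.
Tgfb1 promoter, chr7:25686752-25687051, plus strand: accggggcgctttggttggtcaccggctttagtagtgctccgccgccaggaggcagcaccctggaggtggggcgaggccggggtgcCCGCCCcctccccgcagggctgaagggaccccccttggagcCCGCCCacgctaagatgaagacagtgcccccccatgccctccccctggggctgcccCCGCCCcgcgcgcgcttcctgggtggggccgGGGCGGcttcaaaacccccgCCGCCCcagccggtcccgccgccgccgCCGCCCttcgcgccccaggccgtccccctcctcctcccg
Tgfb2 promoter, chr1:186705940-186706239, minus strand: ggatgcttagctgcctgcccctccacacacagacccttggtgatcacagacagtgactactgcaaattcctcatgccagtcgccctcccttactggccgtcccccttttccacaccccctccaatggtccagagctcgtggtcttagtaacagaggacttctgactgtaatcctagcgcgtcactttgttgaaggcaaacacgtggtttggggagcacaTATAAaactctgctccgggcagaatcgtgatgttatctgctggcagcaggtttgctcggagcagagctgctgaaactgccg
The Tgfb1 window held the GC box 1 time on the strand shown and 5 times on the other strand, and no TATAA on either. The Tgfb2 window held 1 TATAA, on the strand shown, that began 31 bases before the start, and no GC box on either strand. Of 32851 RefSeq promoters of the same length, 24.9% held TATAA and 35.7% held the GC box on at least 1 strand, at any position. TATAA on the strand of the gene, 45 to 21 bases before the start, was in 3.7%. No motif overlapped another in either window.

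The ligands differed in the cells that held them. Tgfb1 was highest in macrophage or dendritic-like cells, at 52.1 CPM, followed by mesangial-like cells at 25.2 CPM and endothelial-like cells at 19.8 CPM. It was at or under 2.50 CPM in parietal epithelial-like, tubule-like, podocyte-like cells and in cells like smooth muscle or renin cells. Tgfb2 had 95.6 CPM in smooth muscle or renin cell-like cells, 83.2 CPM in endothelial-like cells and 55.9 CPM in mesangial-like cells. Tgfb3 had 123 CPM in smooth muscle or renin cell-like cells, 118 CPM in parietal epithelial-like cells, 34.3 CPM in mesangial-like cells and 1.18 CPM in endothelial-like cells. These levels are over both groups, and for 2 of the 3 ligands the highest class differed between them. Tgfb2 had 124 CPM in 21 IgAN smooth muscle or renin cell-like cells, above the 50.4 CPM of IgAN endothelial-like cells, but 40.9 CPM in 11 such Control cells, below the 137 CPM of Control endothelial-like cells. Tgfb3 was highest in smooth muscle or renin cell-like cells of IgAN, at 139 CPM, and in parietal epithelial-like cells of Control, at 96.8 CPM, while Tgfb1 was highest in macrophage or dendritic-like cells of either group. Over both groups, mesangial-like cells held all 3 ligands at over 10 CPM, while endothelial-like cells held Tgfb2 with little Tgfb3. In Control mesangial-like cells Tgfb3 was at 9.98 CPM, with 161 of its 177 reads in the 4 cells of plate 321.

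**Figure D1:**
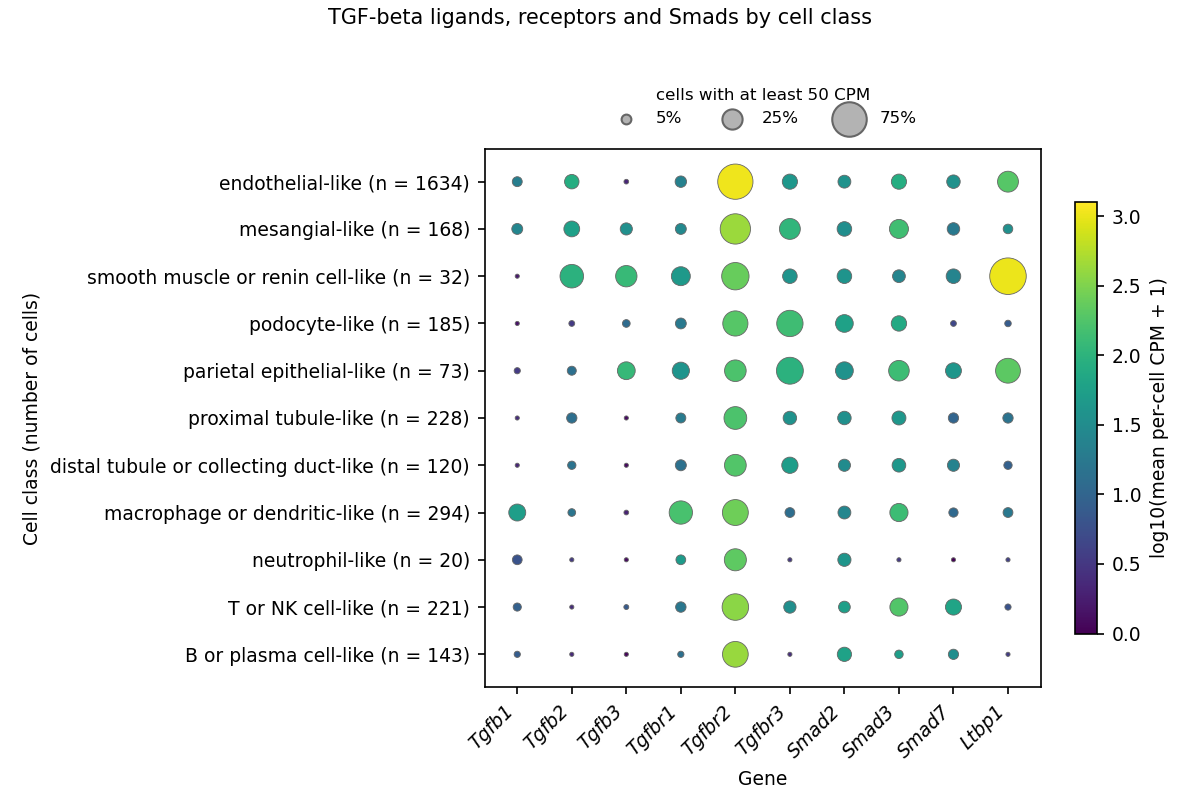
Columns are the 10 genes and rows the 11 named cell classes, both groups together; colour is log10 of the mean per-cell CPM plus 1 and the area of a circle follows the share of cells with at least 50 CPM. Over both groups Tgfbr2 is present in every class and highest in endothelial-like cells, and Tgfb1 is highest in macrophage or dendritic-like cells. Tgfb2, Tgfb3 and Ltbp1 are highest in smooth muscle or renin cell-like cells. For Tgfb2 and Tgfb3 that order holds in IgAN and not in Control.

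Single reads of these genes turned up in cells that are not known to make them. Tgfb2 had a read in 21.7% of B or plasma cell-like cells and in 21.7% of T or NK cell-like cells, against 31.6% of endothelial-like cells, while the median depths of these lymphoid-like classes were 161329 to 210992 reads and those of the endothelial-like class 233199 in IgAN and 261831 in Control. At 50 CPM or more, Tgfb2 was in 0 of 143 B or plasma cell-like and 0 of 221 T or NK cell-like cells, which allows shares of up to 2.1% and 1.36% by a limit of 3 counts, and in 12.2% of endothelial-like cells. Shares below are therefore given at 50 CPM, a limit chosen after the data were seen. Ltbp1 likewise had a read in 30.8% of B or plasma cell-like cells, and none of the 143 cells had 50 CPM, against 93.8% and 84.4% of smooth muscle or renin cell-like cells.

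The signalling receptors had unequal reach. Tgfbr2, the receptor that binds ligand first, had a read in 87.7% to 97.7% and at least 50 CPM in 28.8% to 78.5% of the cells of each class, and reached 1054 CPM in endothelial-like cells, where its range over all 10 plates was 483 to 1510 CPM. Mesangial-like cells followed at 431 CPM and B or plasma cell-like cells at 420 CPM. The lowest level was 167 CPM in proximal tubule-like cells. These shares and levels are over both groups. Control proximal tubule-like cells had 52.6 CPM of Tgfbr2, with at least 50 CPM in 7 of 85 cells (8.24%). Those of IgAN had 235 CPM, with at least 50 CPM in 66 of 143 cells (46.2%). In distal tubule or collecting duct-like cells the shares were 13.0% in Control and 39.2% in IgAN. That class had only 2 Control plates with at least 10 cells and was not among those compared between groups. Endothelial markers in its cells summed to 4578 CPM in IgAN and 698 CPM in Control. Their part in the Tgfbr2 shares was not tested. Tgfbr1, the kinase that passes the signal on, was highest in macrophage or dendritic-like cells at 157 CPM, where 33.7% of cells had at least 50 CPM. It was at 21.6 CPM in endothelial-like cells, where 7.28% of cells had at least 50 CPM. Per kilobase of exon, the scale on which genes can be compared, Tgfbr2 had 129 CPM per kb in endothelial-like cells and Tgfbr1 had 3.31 CPM per kb. Both receptors reached 50 CPM in the same cell in 100 of 1634 endothelial-like cells (6.12%, exact binomial 95% interval 5.01 to 7.39), in 48 of 294 macrophage or dendritic-like cells (16.3%, 12.3 to 21.1) and in 5 of 32 smooth muscle or renin cell-like cells (15.6%, 5.28 to 32.8).

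The co-receptor Tgfbr3 was highest in the epithelium and mesangium of the glomerulus but was not confined to them. It had 135 CPM in podocyte-like cells, 107 CPM in mesangial-like cells and 94.7 CPM in parietal epithelial-like cells, with at least 50 CPM in 43.2%, 26.8% and 45.2% of those cells. By the median over plates, distal tubule or collecting duct-like cells came next at 62.5 CPM. Their plates, at 14.7 to 91.1 CPM, overlapped those of parietal epithelial-like cells, at 62.6 to 94.0 CPM. In podocyte-like cells, the slit diaphragm cells, the 6 plates ranged from 108 to 187 CPM. Of the ligands, podocyte-like cells held 0.465 CPM of Tgfb1, 2.50 CPM of Tgfb2 and 11.2 CPM of Tgfb3.

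The Smads differed in how far their levels varied between classes. Smad2 lay between 25.8 and 60.9 CPM in all 11 classes. In neutrophil-like cells its level rested mostly on 1 cell of plate 314, which held 60 of the 62 Control reads. The 8 IgAN neutrophil-like cells held 8 Smad2 reads. Smad3 was highest in T or NK cell-like cells at 178 CPM, then in mesangial-like cells at 140 CPM, parietal epithelial-like cells at 134 CPM and macrophage or dendritic-like cells at 132 CPM, and lowest in neutrophil-like cells at 2.35 CPM. Smad7, the inhibitor, was highest in T or NK cell-like cells at 63.6 CPM and low in podocyte-like cells at 3.51 CPM. Within IgAN, Smad7 was highest in parietal epithelial-like cells at 57.6 CPM, with 38.4 CPM in T or NK cell-like cells, and within Control it was highest in T or NK cell-like cells at 81.9 CPM. Smad3 was highest in T or NK cell-like cells of IgAN, at 206 CPM, and in Control nearly level between parietal epithelial-like cells at 159 CPM and T or NK cell-like cells at 158 CPM. Per kilobase, Smad3 exceeded Smad2 in endothelial-like cells, at 14.9 against 4.14 CPM per kb. Smad7 had a read in 0 of 20 neutrophil-like cells, which allows a share of up to 15%.

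Ltbp1 was high in 3 classes. It reached 1008 CPM in smooth muscle or renin cell-like cells, with at least 50 CPM in 84.4% of the 32 cells, 207 CPM in parietal epithelial-like cells and 193 CPM in endothelial-like cells. All other classes were at or under 34.4 CPM. Ordered by the median over plates within the 9 classes, smooth muscle or renin cell-like cells not among them, that had plates with at least 10 cells, parietal epithelial-like cells (165 to 312 CPM) overlapped endothelial-like cells (100.1 to 321 CPM), and the next class, distal tubule or collecting duct-like cells, lay apart at 1.46 to 18.2 CPM. Of 80 neighbouring pairs of classes in the orders of the 10 genes, this was the pair that did not overlap, and the plate ranges of the other 79 did.

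Likeness across classes was measured as Pearson's r of log2(CPM + 1) over 11 classes, a description in which all points share the same plates. The genes most like Tgfb2 were Epas1, a hypoxia-inducible transcription factor, at r = 0.97, Gm20481 at 0.97 and Trim47 at 0.96. Those most like Ltbp1 were Eln, which encodes elastin, at 0.97, and Smad9 at 0.94. Tgfb3 was most like Gm4787, Clip3 and Mustn1 (0.96, 0.96 and 0.95), and Tgfbr3 most like Lrp6, a Wnt co-receptor, Zcchc3 and Gm16104 (0.97, 0.97 and 0.96). Tgfb1 was most like Nlrp1a, Parp14 and Gbp5 (0.92, 0.91 and 0.90), and Tgfbr1 most like Plin2, Mapkapk2 and Dusp16 (0.88, 0.87 and 0.86). Tgfbr2 was most like Mmp28, Sh3bp5 and Tubb1 (0.88, 0.85 and 0.84). Smad2 was most like Wdr77, 5330438D12Rik and RP23-169H9.3 (0.88, 0.84 and 0.84), Smad3 most like Nmt1, Kpna3 and Eml3 (0.97, 0.96 and 0.96) and Smad7 most like Nt5c3b, Nrf1 and Pkmyt1 (0.97, 0.96 and 0.95). Among the members themselves the highest r was 0.83, between Ltbp1 and Tgfb2.

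The comparison of IgAN with Control asks how the cells of diseased glomeruli differ from those of Control ones. Between IgAN and Control, 3 of 47 comparisons of a measured member within 1 of 6 classes met the call, 6.38%, against 4.57% of the 59257 such comparisons over all measured genes, so the count itself is near the background. Tgfb2 was lower in IgAN endothelial-like cells, Tgfb3 was higher in IgAN mesangial-like cells, and Tgfbr2 was higher in IgAN proximal tubule-like cells. None was called in podocyte-like, macrophage or dendritic-like or T or NK cell-like cells.

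**Figure D2:**
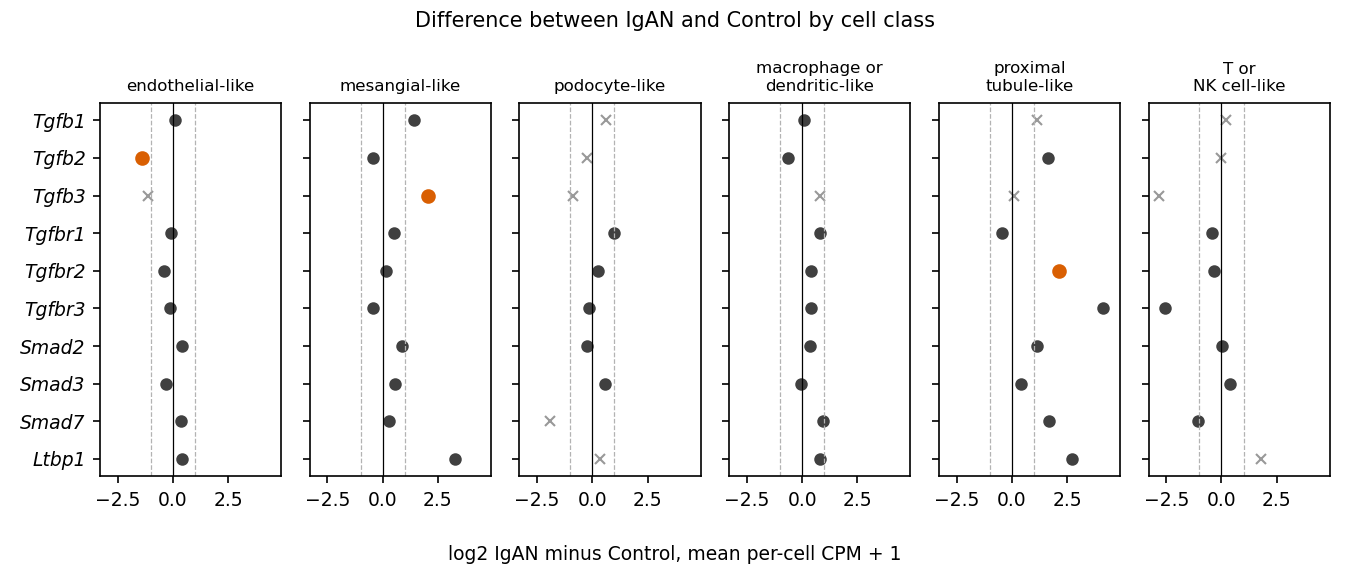
Each panel is a cell class and each row a gene; the horizontal axis is the log2 difference, IgAN minus Control, of the mean per-cell CPM plus 1. Orange points met the call, dark points were measured but not called, grey crosses were below the limits for a measured gene, and dashed lines mark a log2 difference of 1 in either direction; Tgfb2 in endothelial-like cells is at -1.42.

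In endothelial-like cells, 1 of 9 measured members was called, against 1.58% of 9718 measured genes in either direction 0.844% called lower and 0.741% called higher. The 6 IgAN plates held 27.9 CPM of Tgfb2 at the lowest, 47.6 at the median and 64.4 at the highest, and the 4 Control plates held 119, 158, 107 and 147 CPM. Every IgAN plate was below every Control plate. The means were 50.4 CPM in 1012 IgAN cells and 137 CPM in 622 Control cells, and 82 of the IgAN cells (8.10%, 6.50 to 9.96) had at least 50 CPM, against 118 of the Control cells (19.0%, 16.0 to 22.3).

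Cluster 4 of the endothelial-like cells carried most of this Tgfb2. This cluster, whose leading genes include Fbln5 and Fbln2, both fibulins of the elastic fibre, and Igfbp3, and also Tgfb2 itself, held 109 IgAN and 111 Control cells. It had 67.0% of the IgAN and 67.8% of the Control Tgfb2 reads in 10.8% and 17.8% of the endothelial-like cells. Within it, 4 IgAN plates ranged from 262 to 447 CPM and 3 Control plates from 380 to 577 CPM, so the groups overlapped. The means were 305 CPM in IgAN and 511 CPM in Control, a log2 difference of -0.74, and 47 of 109 IgAN cells (43.1%, 33.7 to 53.0) reached 50 CPM, against 68 of 111 Control cells (61.3%, 51.5 to 70.4). Because Tgfb2 helped to form cluster 4, its high level there is no finding.

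The remaining endothelial-like cells showed the same direction. Without cluster 4, the 6 IgAN plates held 7.95 CPM at the lowest, 19.1 at the median and 31.5 at the highest, and the 4 Control plates ranged from 45.0 to 63.1 CPM with a median of 53.6. The plates did not overlap, and the log2 difference was -1.44, from 19.7 CPM in 903 IgAN cells against 55.1 CPM in 511 Control cells. The 2 groups filled different clusters, however. Cluster 0 held 4.15% of IgAN and 66.7% of Control endothelial-like cells, cluster 1 33.7% and 10.8%, cluster 2 27.8% and 2.09%, and cluster 3 21.6% and 0.322%. Inside cluster 0, Tgfb2 had 33.4 CPM in 42 IgAN cells and 60.5 CPM in 415 Control cells, and inside cluster 1 it had 17.9 CPM in 341 IgAN cells and 27.9 CPM in 67 Control cells. At 50 CPM the cluster 0 shares were 9.52% (2.66 to 22.6) in IgAN and 10.1% (7.39 to 13.4) in Control. How far the make-up of the clusters sets the difference was not tested.

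**Figure D3:**
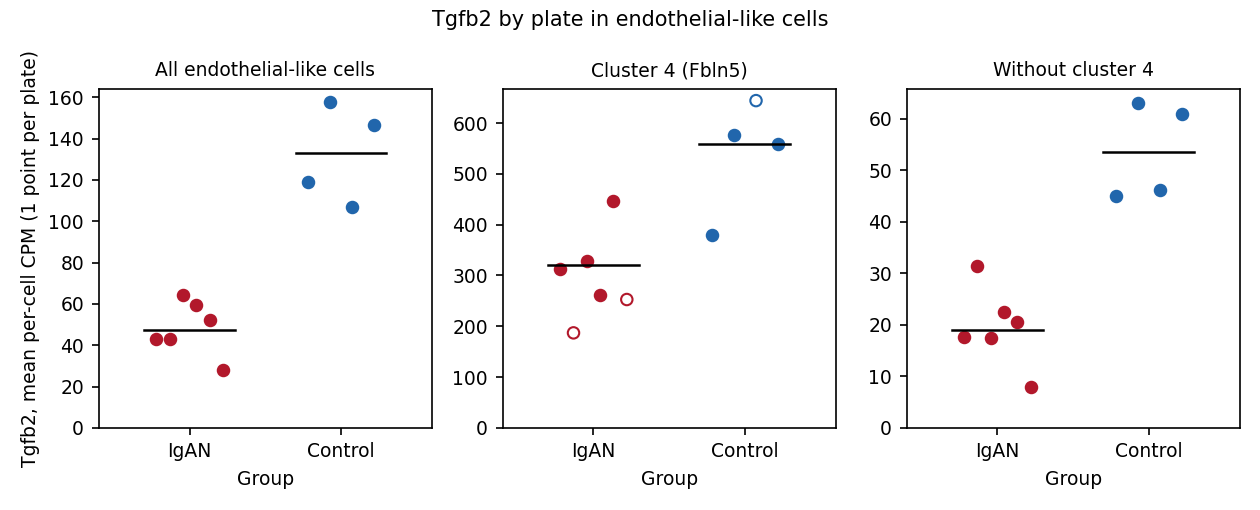
Points are plates and the vertical axis is the mean per-cell CPM of Tgfb2 in all endothelial-like cells, in cluster 4, and in the cells outside cluster 4, with IgAN in red and Control in blue; lines are medians over plates with at least 10 cells and open points have fewer cells. IgAN plates lie at 27.9 to 64.4 CPM and Control plates at 107 to 158 CPM in all cells, and the groups overlap only in cluster 4.

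The other measured members stayed close together in endothelial-like cells. Tgfbr2 had 942 CPM in IgAN and 1237 CPM in Control, with plates from 483 to 1416 CPM and from 966 to 1510 CPM that overlapped. Ltbp1 had 212 CPM in IgAN and 161 CPM in Control, Smad3 75.7 and 93.8 CPM, and Smad7 38.3 and 29.5 CPM, all with overlapping plates. The 9 measured members had a median log2 difference of -0.10, beside -0.00 over all genes, with 4 above 0. Markers of other classes were low in endothelial-like cells: podocyte markers, the most abundant, summed to 860 CPM in IgAN and 1031 CPM in Control.

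Around these members, the wider pathway showed few called genes in endothelial-like cells, where 1.58% of 9718 measured genes were called in either direction. Of 9 measured BMP and Alk1 target genes, 1 was called lower, Gja5, a gap junction protein of arterial endothelium, with 40.3 CPM in IgAN and 213 CPM in Control (log2 -2.37). Its plates ranged from 6.17 to 62.6 CPM in IgAN and from 173 to 284 CPM in Control and lay apart. None was called in the other 6 lists: 0 of 4 further ligands, 0 of 14 latency and activation genes, 0 of 7 further receptors, 0 of 9 further Smads and partners, 0 of 16 inhibitors and 0 of 16 TGF-beta target genes. Smad6, an inhibitory Smad, had plates of 93.3 to 185 CPM in IgAN above 51.6 to 85.8 CPM in Control, but its log2 difference of 0.94 was under the limit. Plates lay apart, at any fold, for 3.65% of measured genes. The BMP and Alk1 targets Id1 and Id3 had 848 and 1305 CPM in IgAN beside 834 and 1101 CPM in Control, and the endothelial co-receptor Eng had 3609 beside 3324 CPM, with overlapping plates.

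Mesangial cells are contractile and support the capillary loops. In mesangial-like cells 1 of 10 members was called, against 2.80% of 10299 measured genes in either direction, 1.44% called higher and 1.36% called lower. Tgfb3 had 16.5 CPM on the lowest of 6 IgAN plates, 36.6 at the median and 146 on the highest, and 0, 0.098 and 2.62 CPM on Control plates 314, 317 and 326. The IgAN plates all lay above these Control plates. The fourth Control plate, 321, had 4 mesangial-like cells, too few for the call, and held 117 CPM, with 161 of the 177 Control reads. The means over all cells were 44.9 CPM in 117 IgAN cells and 9.98 CPM in 51 Control cells, a log2 difference of 2.06, and 4.62 without plate 321. If plates with at least 2 cells count, plate 321 overlaps the IgAN plates and Tgfb3 is no longer called.

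Few cells carried this Tgfb3. At least 50 CPM was found in 13 of 117 IgAN cells (11.1%, 6.05 to 18.3) and in 1 of 51 Control cells (1.96%, 0.050 to 10.4), and 3 IgAN cells held at least 50% of the 1881 IgAN reads. Plate 322, with 10 mesangial-like cells, was the highest. Some markers of the 2 classes with more Tgfb3 over both groups were also found here. Of 8 smooth muscle or renin cell markers, 5 reached 10 CPM in either group, and they summed to 861 CPM in IgAN (plates 313 to 1839 CPM) and 561 CPM in Control (359 to 770 CPM). Myh11, a defining smooth muscle gene, was at 5.85 CPM in IgAN and 0 in Control. Parietal epithelial markers summed to 1734 CPM in IgAN (1034 to 2093 CPM) and 525 CPM in Control (314 to 900.1 CPM), plates apart, nearly all of it from 2 of 7 genes. These were Cp, the ferroxidase ceruloplasmin, at 1421 and 436 CPM, and Cldn1, a tight junction protein, at 300.0 and 86.3 CPM, while Pax8 was at 1.27 and 0.749 CPM and Pax2 at 1.25 and 0 CPM. Where these marker reads come from, and whether they bear on the Tgfb3 difference, was not tested.

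The other members overlapped in mesangial-like cells. Ltbp1 had the largest log2 difference, 3.28, from 47.6 CPM in IgAN and 4.00 CPM in Control. Its IgAN plates ran from 2.69 through a median of 37.7 to 146 CPM and its Control plates held 4.16, 3.62 and 5.29 CPM, so 2 IgAN plates lay within or below the Control range. At least 50 CPM was found in 8 of 117 IgAN cells (6.84%, 3.00 to 13.0) and in 0 of 51 Control cells, which allows up to 5.88%. The highest IgAN cell had 3036 CPM, and without its plate, 318, the log2 difference was 2.37. It was 1.08 without cells that carry markers of 2 classes and 1.33 at a clustering resolution of 2. Tgfb1 had 31.4 CPM in IgAN and 11.0 CPM in Control, with IgAN plates of 0.666 to 50.1 CPM and Control plates of 3.50 to 13.2 CPM. Control plate 321, with 4 cells, held 59.7 CPM of Tgfb1. The Tgfb1 log2 difference was 1.44, or 2.05 without that plate. It was -0.35 in the 40 IgAN and 23 Control cells with low endothelial markers, those whose summed endothelial markers stayed under 10% of the median of endothelial-like cells. Tgfb2 had 50.2 CPM in IgAN and 69.1 CPM in Control. Tgfbr1 had 30.7 CPM in IgAN and 21.5 CPM in Control (0.50), with IgAN plates of 4.84 to 102 CPM and Control plates of 0.837 to 65.7 CPM. Control plate 317 held 116 of the 126 Control reads of Tgfbr1, and without it the log2 difference was 3.82 and Tgfbr1 was called higher. The median log2 difference of the 10 members was 0.52, beside 0.02 over all genes, with 8 above 0.

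**Figure D4:**
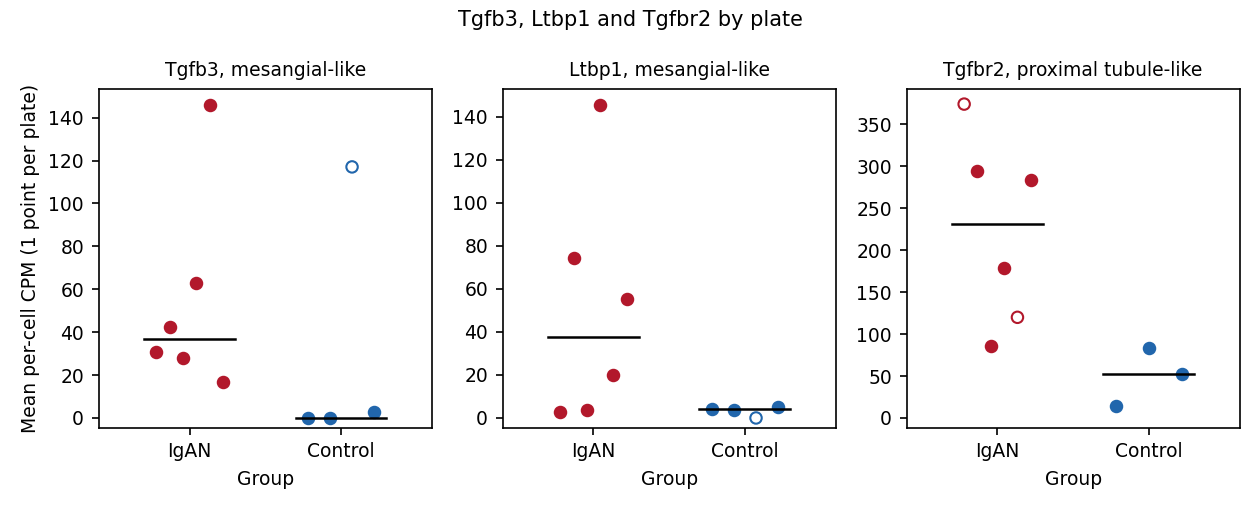
Points are plates and the vertical axis is the mean per-cell CPM of Tgfb3 and Ltbp1 in mesangial-like cells and of Tgfbr2 in proximal tubule-like cells, with IgAN in red and Control in blue; lines are medians over plates with at least 10 cells and open points have fewer. The open Control point of Tgfb3 is plate 321 at 117 CPM, and Tgfbr2 lies at 85.6 to 295 CPM on the filled IgAN plates and at 14.1 to 83.8 CPM on Control plates.

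Beyond the members, 4 pathway genes were called in mesangial-like cells, each of them higher in IgAN. Of all 10299 measured genes in this class, 1.44% were called higher and 1.36% lower. They were 1 of 4 measured ligands, 1 of 16 latency and activation genes and 2 of 22 TGF-beta target genes, with none called among 8 receptors, 9 Smads and partners, 15 inhibitors and 6 BMP targets. The ligand was Bmp4, with 119 CPM in IgAN and 30.4 CPM in Control (log2 1.94) and plates of 76.9 to 167 CPM and 25.6 to 46.6 CPM. The activation gene was Furin, the protease that cleaves the TGF-beta precursor, with 91.5 CPM in IgAN and 18.4 CPM in Control (2.25). The targets were Fn1, fibronectin, with 45.6 CPM in IgAN and 1.36 CPM in Control (4.30), and Tagln, an actin-binding protein that is also a smooth muscle marker here, with 111 CPM in IgAN and 11.1 CPM in Control (3.20). The abundant targets Ctgf, a matrix cell signal protein, and Col4a1, basement membrane collagen, were not called, with 3554 and 1963 CPM in IgAN beside 2750 and 2238 CPM in Control. Endothelial markers summed to 2674 CPM in IgAN and 1807 CPM in Control mesangial-like cells, with overlapping plates.

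In proximal tubule-like cells, also present in the glomerular fraction, 1 of 8 measured members was called, against 8.70% of 10205 measured genes in either direction, 6.55% called higher and 2.16% called lower. Tgfbr2 held 295, 85.6, 179 and 284 CPM on IgAN plates 315, 316, 318 and 325, and 14.1, 83.8 and 52.0 CPM on Control plates 314, 317 and 321. The groups lay apart, narrowly so between IgAN plate 316 and Control plate 317. The means were 235 CPM in 143 IgAN cells and 52.6 CPM in 85 Control cells, a log2 difference of 2.14. Endothelial-like cells hold the most Tgfbr2, and all 10 of their markers reached 10 CPM in IgAN proximal tubule-like cells. Those markers summed to 3629 CPM in IgAN (plates 248 to 6979 CPM) and 234 CPM in Control (196 to 326 CPM), and to 4061 and 6979 CPM on plates 315 and 325. In the 89 IgAN and 85 Control cells with low endothelial markers, the log2 difference was 1.15 and Tgfbr2 was not called. Tgfbr3 had 57.8 CPM in IgAN and 2.38 CPM in Control, a log2 difference of 4.12, and its IgAN plates were at 88.1 and 91.4 CPM on 315 and 325 and at 0.592 and 0 CPM on 316 and 318. The median of all genes in this class was 0.29, and -0.06 with median-of-ratios scaling, while that of the 8 measured members was 1.66. With that scaling the share of called genes that were higher was 54.9% in place of 75.2%, and Tgfbr2 was at 1.74 and not called. Of the wider lists, 5 of 15 measured TGF-beta target genes were called higher, among them Ctgf at 163 CPM in IgAN and 7.15 CPM in Control, and the median over those 15 was 2.89. Every other list also had genes called higher and none lower. These were 1 of 5 ligands, 3 of 16 latency and activation genes and 1 of 7 receptors. The rest were 1 of 8 Smads and partners, 2 of 17 inhibitors and 1 of 10 BMP and Alk1 targets. Their medians ran from 0.72 for Smads and partners to 3.47 for receptors. The part of the endothelial markers in these list differences was not tested.

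In podocyte-like cells none of 5 measured members was called, against 11.0% of 9569 measured genes, 3.97% higher and 7.05% lower. Only 2 IgAN plates had at least 10 of the 39 IgAN cells, so the call was easier to meet there than in other classes. Tgfbr3 had 122 CPM in IgAN and 138 CPM in Control, with IgAN plates of 152 and 187 CPM inside or above Control plates of 108 to 181 CPM. Among the wider lists, Mmp2, a matrix protease, was called higher with 452 CPM in IgAN and 88.2 CPM in Control, and so were Lox, a collagen cross-linking enzyme, at 91.6 and 8.60 CPM, and Itgb8, an integrin that activates latent TGF-beta, at 256 and 117 CPM. The immediate early gene Junb was called lower, at 127 CPM in IgAN and 506 CPM in Control. In all, 3 of 15 measured TGF-beta target genes were called higher, which were Lox, Acta2 and Tagln, and 1 lower. Of the other lists, 2 of 12 latency and activation genes and 1 of 8 Smads and partners were called higher, and 1 of 3 ligands (Bmp4), 1 of 6 receptors (Acvr1b) and 1 of 16 inhibitors (Smurf2) lower, with none of 4 BMP and Alk1 targets. Smooth muscle or renin cell markers, which include Acta2 and Tagln, summed to 212 CPM in IgAN (plates 97.3 to 217 CPM) and 38.0 CPM in Control podocyte-like cells (13.0 to 72.2 CPM). Parietal epithelial markers summed to 611 CPM in IgAN (643 to 680 CPM) and 341 CPM in Control (247 to 385 CPM), so both marker sums lay apart between the plates with at least 10 cells. Their part in these differences was not tested.

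In macrophage or dendritic-like cells none of 9 measured members was called, against 1.33% of 9922 measured genes, 0.746% higher and 0.585% lower. Tgfbr1, highest in this class, had 186 CPM in IgAN and 104 CPM in Control (log2 0.82), with IgAN plates of 62.0 to 422 CPM around Control plates of 60.5 to 141 CPM. At least 50 CPM was found in 73 of 191 IgAN cells (38.2%, 31.3 to 45.5) and in 26 of 103 Control cells (25.2%, 17.2 to 34.8). Cluster 8, with the monocyte genes Treml4 and Cd300e in front, had 250.4 CPM in 115 IgAN cells and 120 CPM in 48 Control cells. Cluster 15, led by the complement genes C1qa, C1qb and C1qc, had 60.3 CPM in 24 IgAN cells and 277 CPM in 10 Control cells. These cluster means have no plate range, and cluster 12, also of this class, is not described. Over the class, 7 Control cells held at least 50% of the 2872 Control Tgfbr1 reads, and 15 IgAN cells at least 50% of the 7822 IgAN reads. Tgfb1 was close in both groups, at 53.4 CPM in IgAN and 49.5 CPM in Control. None of the 7 wider lists had a called gene here.

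In T or NK cell-like cells none of 6 measured members was called, against 2.01% of 9544 measured genes, 0.492% higher and 1.52% lower. Cluster 10 of this class, with Cd3e and Trac among its leading genes, held 32 IgAN and 83 Control cells. Cluster 11, with Gzma and Ncr1 in front, held 61 IgAN and 45 Control cells. How far this make-up sets the differences of the class was not tested. Tgfbr3 had the largest log2 difference, -2.54, with 7.91 CPM in 93 IgAN cells and 50.9 CPM in 128 Control cells. The 6 IgAN plates ran from 1.03 through a median of 3.44 to 32.8 CPM, and the Control plates held 15.1, 100.0, 63.0 and 47.8 CPM. IgAN plate 325 lay above Control plate 314. The endothelial markers of the T or NK cell-like cells on plate 325 summed to 4491 CPM, beside 359 to 2818 CPM on the other IgAN plates. Their part in the Tgfbr3 level of plate 325 was not tested. Without plate 325 the log2 difference was -3.53, without plate 314 it was -2.88, and in the cells with low endothelial markers it was -3.68, and Tgfbr3 was called lower in each. In that last setting 4 IgAN plates had 10 cells in place of 6, so fewer plates had to lie apart. In both groups few cells carried it, with at least 50 CPM in 6 of 93 IgAN cells (6.45%, 2.40 to 13.5) and 13 of 128 Control cells (10.2%, 5.52 to 16.7). Smad7 had 38.4 CPM in IgAN and 81.9 CPM in Control, and Smad3 206 and 158 CPM, with overlapping plates. Of the wider lists, the activin receptor Acvr1b was called lower, at 0.267 CPM in IgAN and 27.0 CPM in Control, and Mmp2, at 27.3 CPM in IgAN and 1.32 CPM in Control, and Acta2, at 32.5 and 2.56 CPM, were called higher. Acta2 is also a smooth muscle marker here, and the 8 smooth muscle or renin cell markers summed to 75.9 CPM in IgAN (plates 31.8 to 166 CPM) and 10.6 CPM in Control (1.46 to 25.4 CPM), plates apart. Their part was not tested. The median of all genes was 0.02, and 0.13 with median-of-ratios scaling, under which Tgfbr3 was at -2.34.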

How the data were processed

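Single cells of the glomerular fraction were sequenced by Smart-seq2. The deposited table holds counts, whole numbers of reads per gene and cell with no normalization, which the authors made, per the submitters' processing notes, on GRCm38 (mm10) with featureCounts of Subread 1.4.6-p5, after TopHat2 2.1.1 and with SAMtools 0.1.18. The sources used here do not give the annotation, strand setting or duplicate handling. Columns carry plate numbers that map cells to groups.

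All 3143 cells had over 10000 reads and none was left out. Cells were scaled to 100000 reads, log transformed, reduced to 2000 variable genes and 30 principal components, and clustered by the Leiden method (15 neighbours, resolution 1). A cluster took the class with the highest mean log2 fold of its markers, provided that 3 or more of them were found in 25% of the cells; cluster 18 stayed unnamed, and fibroblast and erythroid markers named no cluster. No doublet caller was run; cells with markers of 2 classes were left out in an alternative. No 2 cells held identical counts. Intervals are exact (Clopper-Pearson) at 95%. Exon lengths and positions come from GENCODE vM21 and promoters from RefSeq. Named genes are the 10 members, list genes that met the call or were among the 3 most abundant in a class, not all of which are described, and the 3 genes most like each member, 1 of which is not reported here. Alternatives were summed reads, equal plate weights, median-of-ratios scaling, other limits, pseudocount and resolutions, deeper cells, thinning to 50000 reads and leaving out each plate. Members, lists, markers and rules were chosen with earlier results of these data known. Tools were Python 3.11.15, numpy 2.4.6, pandas 2.3.3, scipy 1.17.1, scanpy 1.11.5, anndata 0.12.19, scikit-learn 1.9.0, leidenalg 0.10.2 and matplotlib 3.10.9.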

Additional observations from a re-analysis of the deposited data

Results flagged for a closer look

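A plate could stand apart from the other plates of its group, by the gap to its nearest neighbour over the whole range. Such a plate was found in 15 of 78 sets of a gene, class and group, and all 15 were the highest of their set. The limit flags about 1 in 20 sets by chance only where values follow a normal distribution. That was not checked for these plate means, so the 15 are not read as an excess over chance. In endothelial-like cells these were Tgfbr1 on IgAN plate 325 at 57.7 CPM (next 19.7), Smad7 on IgAN plate 322 at 79.5 CPM (next 43.3) and Ltbp1 on Control plate 314 at 266 CPM (next 134). In mesangial-like cells IgAN plate 322, with 10 such cells, stood apart for Tgfb2 at 172 CPM, Tgfb3 at 146 CPM and Smad7 at 77.9 CPM, and IgAN plate 313 for Smad3 at 236 CPM.

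In macrophage or dendritic-like cells IgAN plate 318 stood apart for Tgfb2 at 61.7 CPM (next 5.49) and Smad7 at 39.6 CPM, IgAN plate 325 for Tgfbr3 at 46.0 CPM, and Control plate 314 for Ltbp1 at 28.8 CPM (next 3.37). In proximal tubule-like cells IgAN plate 325 held 48.2 CPM of Tgfb2 (next 5.57). In T or NK cell-like cells IgAN plate 316 stood apart for Tgfb1 at 33.2 CPM, IgAN plate 325 for Tgfbr3 at 32.8 CPM, and Control plate 326 for Tgfb3 at 38.9 CPM (next 0.438). Single cells carried much of several of these: 1 cell held at least 50% of the 442 Tgfb2 reads of IgAN macrophage or dendritic-like cells, and 1 cell at least 50% of the 185 Tgfb3 reads of Control T or NK cell-like cells.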

How the results depend on the processing

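No sign of a called member turned in any alternative. Tgfb2 in endothelial-like cells was called in every setting except cluster 4 alone, where 0 members were called, and its log2 difference was -1.52 to -1.33 with a plate left out. In mesangial-like cells 0 members were called when a gene needed 50 CPM, when plates with at least 2 cells counted, and in cells with low endothelial markers, where no Control plate kept 10 cells; leaving out a plate gave 1 to 2, with Tgfbr1 added without plate 317 (3.82), and a Tgfb3 difference of 1.56 to 4.62. With equal weight for plates it was 4.86. In proximal tubule-like cells 2 members were called on summed reads and 0 with median-of-ratios scaling, with at least 100000 reads per cell or with low endothelial markers; leaving out a plate gave 1 to 3, with Ltbp1 or Smad7 added without plates 316, 317 or 321. In T or NK cell-like cells 1 was called with at least 100000 reads or low endothelial markers, and 0 to 1 without a plate (Tgfbr3 without 314 or 325, Ltbp1 without 316); podocyte-like cells gave 0 to 1 (Tgfbr1, without plate 316) and macrophage or dendritic-like cells 0 to 1 (Ltbp1, without plate 314). A plate left out makes the call easier, since fewer plates must lie apart. Of 1390 member differences under alternatives 14 moved beyond the plate spread, of 60 thinned shares 9 and of 220 class levels 39. Beyond what the settings themselves set, the cause was not tested. Counts of all genes called moved by over 1.5 times under some settings. At 50 CPM they were 74 of endothelial-like (154 as reported), 165 of mesangial-like (288), 460 of podocyte-like (1055), 66 of macrophage or dendritic-like (132), 410 of proximal tubule-like (888) and 96 of T or NK cell-like genes (192). With no low filter they were 258 and 220 in endothelial-like and macrophage or dendritic-like cells. Endothelial-like cells gave 291 at a fold limit of 1.5 and 469 in cluster 4 alone. With low endothelial markers the counts were 0 mesangial-like, 506 proximal tubule-like and 313 T or NK cell-like, with at least 100000 reads 315 T or NK cell-like, and with plates of at least 2 cells 175 mesangial-like, 357 podocyte-like and 229 proximal tubule-like. Leaving out a plate raised them to at most 251 endothelial-like (without 314), 754 mesangial-like (314), 2090 podocyte-like (316), 290 macrophage or dendritic-like (314), 1927 proximal tubule-like (316) and 327 T or NK cell-like genes (322). No paired analysis was possible because the plates carry no replicate numbers shared between groups. Depth limits members near 10 CPM, where few cells hold most reads. Low endothelial markers, plates of at least 2 cells, cluster 4 and the 50 CPM share were chosen after seeing the data.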
